A study of Lactuca sativa with 24 samples.

Results

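The genes described here are, by their mean level, clearly read in the leaves of 1 lettuce variety and almost silent, but not fully silent, in the leaves of the other. They are the 105 of 31499 genes with a mean of at least 10 CPM (reads of a gene scaled to 1e6 reads in all genes of the library) in 1 variety and a mean above 0 but under 0.5 CPM in the other. Of these, 50 were high in Luna bionda and near silent in Falstaff, and 55 were high in Falstaff and near silent in Luna bionda. The means were taken over the 18 deeply sequenced libraries, 11 of Luna bionda and 7 of Falstaff. The difference between the varieties in those libraries chose the genes, so it is described below and not tested.

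The study sequenced polyA RNA from baby leaves of lettuce (Lactuca sativa), 24 libraries in all, with 3 in each of 8 groups. In Luna bionda, a wild-type variety, the groups were day 0 and day 6 under visible light only, and 6 days of UVB at 0.4 W/m2 for 2.5 h or for 7.5 h per day. In Falstaff, also wild type, they were the same 2 groups of visible light, UVB at 0.4 W/m2 for 2.5 h per day, and UVA at 0.4 W/m2 for 7.5 h per day. Each of the 7.5 h treatments was thus used in 1 variety alone. The labels do not say whether replicate libraries are separate plants, and p-values here speak only of the spread from library to library, which may be technical.

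The names of the deposited tables give some libraries another condition than their labels do. In Falstaff, the table names place the libraries labelled day 6 visible light at day 0, those labelled UVA in the day 6 control, those labelled day 0 in the first UVB treatment and those labelled UVB 2.5 h in the second. In Luna bionda, they place the libraries labelled day 0 in the day 6 control. They also put visible light replicates 2 and 3 with UVB 7.5 h replicate 1 at day 0, and visible light replicate 1 with UVB 7.5 h replicates 2 and 3 in the second UVB treatment. The variety of each library and the UVB 2.5 h libraries of Luna bionda are the same by both. Groups were taken from the labels, and it was not settled which names are right, so every comparison between conditions given below is one between libraries as labelled. The contrast of the varieties does not depend on this.

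The varieties of a crop are lines bred apart from each other, and it is known in plants that they can differ in the sequence and the level of many genes. A long non-coding RNA (lncRNA) gene gives a transcript with no long reading frame, and in Arabidopsis the levels of such genes are known to vary between lines more than those of protein-coding genes. UVB is sensed in plants by the photoreceptor UVR8, and UVA mainly by the blue-light receptors, so that light treatments change the levels of many leaf genes.

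The 18 deep libraries held between 12072410 and 43276819 reads in genes, and the other 6, shallow libraries between 464282 and 1036697. The shallow libraries were 1 of Luna bionda (UVB 7.5 h replicate 1) and 5 of Falstaff (day 0 replicate 1, day 6 visible light replicate 2, UVB 2.5 h replicate 1, and UVA replicates 1 and 3). Of 6 plastid genes of the photosynthetic leaf, rbcL (the large subunit of Rubisco), psbD and psaB (photosystem proteins) had no read in any deep library, psaA had reads in 1 and psbB in 17 of them. The plastid gene psbA, a photosystem II core protein, had reads in all 18 deep libraries, at 0.416 to 39.1 CPM, and 28431 to 82829 CPM in the shallow ones. Depth and plastid content thus moved together, and all 6 plastid genes had reads in every shallow library. The batch tags in the labels fall into 2 number series, and all 6 shallow libraries had tags of the lower one and all 7 deep Falstaff libraries tags of the higher one. Within the higher series, the tags of the deep Falstaff UVB 2.5 h libraries lay well below those of all others. Luna bionda UVB 2.5 h replicates 2 and 3 stood apart from the other deep Luna bionda libraries, and not only in the genes described here. Both lay below all the others for 22.1% of all genes with at least 10 CPM in Luna bionda, and above for 8.5%. Results are given with and without these libraries below.

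All 105 genes were found in the RefSeq gene table of the assembly Lsat_Salinas_v11, none of them in the plastid or mitochondrial genome. Each is known there by a locus identifier only, so that no function can be given. By the biotype in that table, 63 of the 105 genes, or 60%, were lncRNA genes and 42 were protein-coding. Among all 12391 genes with at least 10 CPM in either variety, 4.73% were lncRNA genes. Seen from the other side, 63 of 586 lncRNA genes with at least 10 CPM in either variety were near silent in 1 variety (10.8%), against 42 of 11786 protein-coding genes (0.356%). The biotypes were not matched in level. The share of lncRNA genes was 52% (26 of 50) for the genes high in Luna bionda and 67.3% (37 of 55) for those high in Falstaff. A further 33 genes reached 10 CPM in 1 variety and had no read at all in the deep libraries of the other, and 23 of them (69.7%) were lncRNA genes. Among the 10621 genes with at least 10 CPM in both varieties, 3.42% were.

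**Figure D1:**
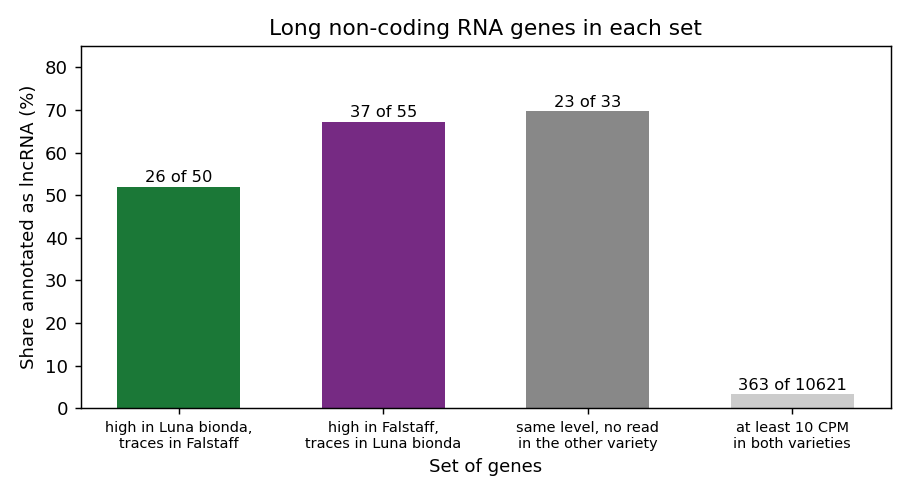
Share of genes annotated as lncRNA in RefSeq (vertical axis, percent) in 4 sets of genes defined by their mean CPM in the deep libraries. The number of lncRNA genes and of all genes in the set stands on each bar. Between 52% and 69.7% of the genes near silent or unread in 1 variety were lncRNA genes, against 3.42% of the genes at 10 CPM or more in both.

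In Luna bionda the 24 protein-coding genes had a median mean level of 17.3 CPM and a maximum of 694 CPM, while the 26 lncRNA genes had a median of 13.5 CPM and a maximum of 48.1 CPM. In Falstaff the 18 protein-coding genes had a median of 18.5 CPM and a maximum of 38.6 CPM, while the 37 lncRNA genes had a median of 14.6 CPM and a maximum of 66.6 CPM. These are read levels not divided by gene length, so they compare a gene between libraries rather than genes with each other.

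The 50 genes high in Luna bionda had summed levels of 1876 ± 693 CPM in the deep Luna bionda libraries (SD, n = 11) and 4.47 ± 2.64 CPM in the deep Falstaff libraries (SD, n = 7). Without UVB 2.5 h replicates 2 and 3 the Luna bionda value was 2164 ± 293 CPM (SD, n = 9). The 55 genes high in Falstaff summed to 3.84 ± 1.90 CPM in the deep Luna bionda libraries (SD, n = 11) and 1152 ± 173 CPM in the deep Falstaff libraries (SD, n = 7). In RNA from whole leaves, fewer cells that hold a transcript and less of it per cell cannot be told apart. Single genes differed by 26.0-fold to 5316-fold (median 527) in the first set, as the Luna bionda mean over the Falstaff mean. In the second set the Falstaff mean over the Luna bionda mean was 31.5 to 9873 (median 1303). Every deep Luna bionda library lay above every deep Falstaff library for 44 of the 50 genes, where 0.902% of all genes did. Every deep Falstaff library lay above every deep Luna bionda library for 53 of the 55, where 2.06% of all genes did. Because the rule chose the genes on these libraries, nothing is read from these counts.

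**Figure D2:**
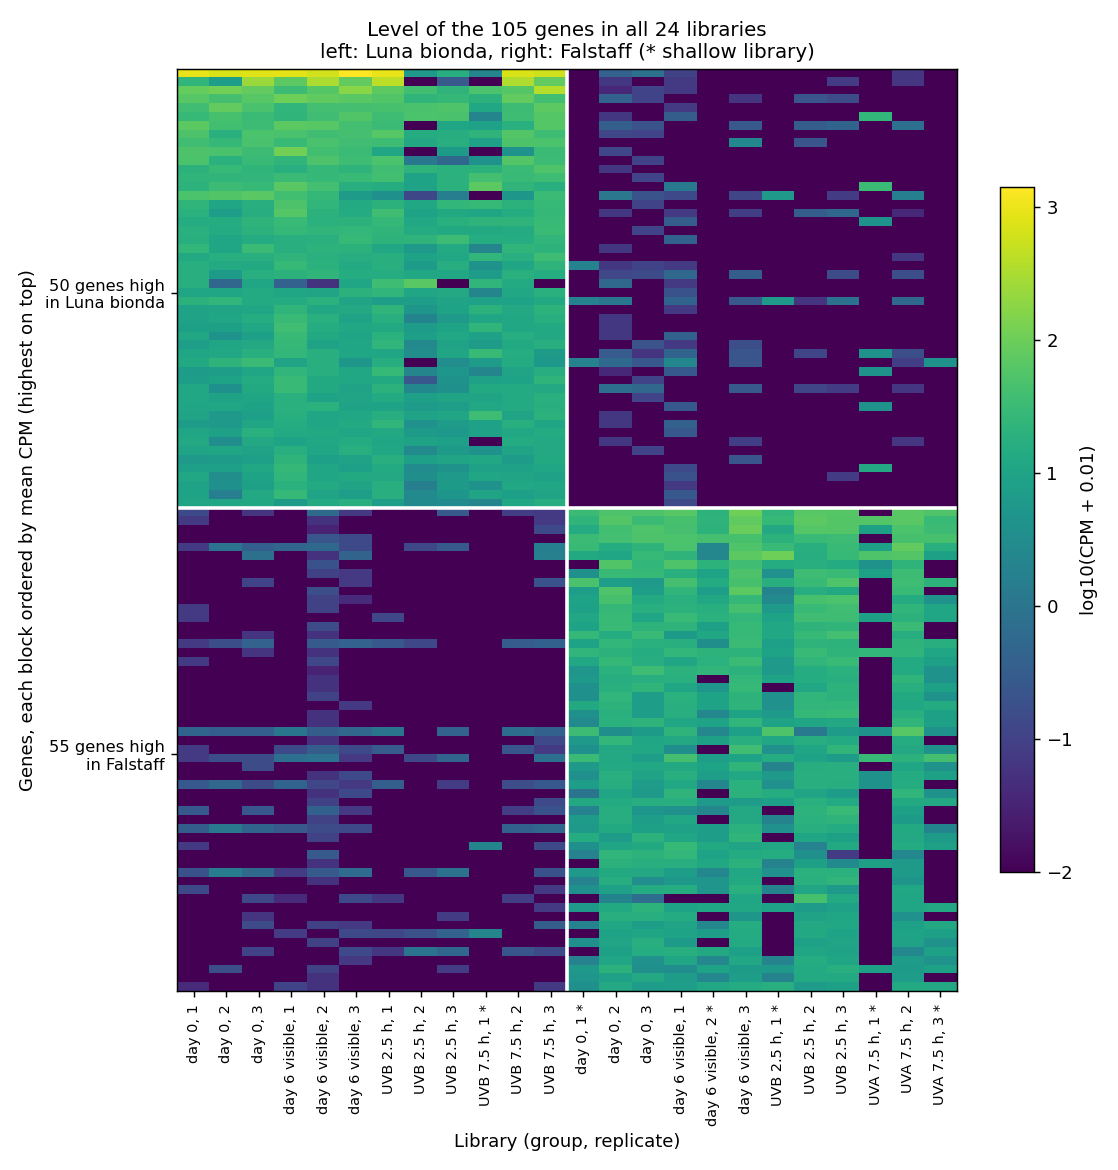
Level of the 105 genes (rows, the 50 high in Luna bionda above the 55 high in Falstaff) in all 24 libraries (columns, Luna bionda left and Falstaff right, shallow libraries marked *), as log10 of CPM + 0.01. Dark cells hold 0 reads. Scattered traces are seen in the low blocks, with the most genes in Luna bionda day 6 visible light replicate 2 (43 of 55) and Falstaff day 6 visible light replicate 1 (29 of 50).

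LOC111895045, a protein-coding gene, was the strongest. In the deep Luna bionda libraries it had 6.19 CPM at the lowest, 731 at the median and 1417 at the highest, with a mean of 694 ± 404 CPM (SD, n = 11). In the deep Falstaff libraries it had 0 CPM at the lowest, 0.0549 at the median and 0.871 at the highest, with a mean of 0.204 ± 0.328 CPM (SD, n = 7), so that the Luna bionda mean was 3400 times the Falstaff mean. The groups did not overlap. All 37 of its Falstaff reads lay in 4 libraries, and 32 of them in the 2 deep libraries of day 0, with 18 and 14 reads. This gene alone made up a large part of the summed level, which was 1181 ± 368 CPM in the deep Luna bionda libraries (SD, n = 11) without it.

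LOC111912471, also protein-coding, varied over the whole range within Luna bionda. It had 432, 0 and 0.271 CPM in the 3 libraries of UVB 2.5 h, 338 and 82.6 CPM in the deep libraries of UVB 7.5 h, 70.5, 334 and 83.8 CPM at day 6 under visible light, and 24.1, 7.37 and 240 CPM at day 0. In Falstaff it had 8 reads in all, 2 in each of 4 libraries, a mean of 0.0357 ± 0.0339 CPM (SD, n = 7). The Luna bionda library with no read lay below the highest Falstaff library, so the groups overlapped.

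The next protein-coding genes were LOC111905546, with a mean of 102 ± 99.9 CPM in Luna bionda and a mean of 0.0270 ± 0.0390 in Falstaff, and LOC111920702, with 59.3 ± 24.3 CPM in Luna bionda and 0.131 ± 0.145 CPM in Falstaff (each SD over 11 and 7 libraries). LOC111902522, the strongest lncRNA gene of the set, had 24.8 to 82.8 CPM in Luna bionda (mean 48.1 ± 16.6, SD, n = 11) and 2 reads in all of Falstaff, both in the same library. Its fold of 5316 was the highest among the 50 genes. LOC111908804, a further lncRNA gene, had 41.1 ± 11.9 CPM in Luna bionda (SD, n = 11) and 0.0536 ± 0.118 CPM in Falstaff (SD, n = 7). None of these 4 genes overlapped between the varieties in the deep libraries. In the shallow library Falstaff UVA replicate 1, LOC111908804 had 25.8 CPM, above its lowest deep Luna bionda value of 23.1 CPM.

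Of the other genes among the 10 strongest, LOC111880262 and LOC111905054 had 0 reads in Luna bionda UVB 2.5 h replicate 2 and so overlapped with Falstaff. Their means were 40.5 ± 24.3 and 34.0 ± 32.4 CPM in Luna bionda (SD, n = 11), and 0.335 ± 0.237 and 0.0167 ± 0.0442 CPM in Falstaff (SD, n = 7). LOC111913535 and LOC111919172 did not overlap, with means of 39.9 ± 17.4 and 35.9 ± 12.9 CPM in Luna bionda (SD, n = 11), and 0.0305 ± 0.0524 and 0.391 ± 0.945 CPM in Falstaff (SD, n = 7). In the deep libraries 6 of the 50 genes overlapped. For 5 of them the lowest Luna bionda value lay in UVB 2.5 h replicate 2. The other, LOC111904704, had 0 CPM in UVB 2.5 h replicate 3 and in UVB 7.5 h replicate 3, and 0.405, 0.0462 and 0.497 CPM in day 6 visible light replicates 1 and 2 and day 0 replicate 2. These 5 values lay below its highest Falstaff value, 0.526 CPM. Most genes sat close to the threshold, as 30 of the 50 had a Luna bionda mean under 20 CPM and 4 had a mean over 50.

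The set high in Luna bionda had a median mean level of 14.3 CPM and a highest of 694 CPM, and the set high in Falstaff had a median of 16.0 CPM and a highest of 66.6 CPM. The 4 strongest genes among those high in Falstaff were all lncRNA genes. LOC111891093 had 0 CPM at the lowest, 0.0621 at the median and 0.601 at the highest in deep Luna bionda libraries (mean 0.114 ± 0.180, SD, n = 11). In deep Falstaff libraries it had 50.8, 63.8 and 105 CPM at the lowest, median and highest (mean 66.6 ± 18.2, SD, n = 7). LOC111884241 had 0.0158 ± 0.0274 CPM in Luna bionda (SD, n = 11) and 58.6 ± 16.2 CPM in Falstaff (SD, n = 7), and LOC111912920 had 0.0137 ± 0.0383 CPM in Luna bionda and 56.7 ± 18.1 CPM in Falstaff over the same libraries. LOC122198068 had 0.0323 ± 0.0757 CPM in Luna bionda (SD, n = 11) and 42.5 ± 8.28 CPM in Falstaff (SD, n = 7), with 14 Luna bionda reads, of which 10 were in 1 library. For all 4 genes every deep Falstaff library lay above every deep Luna bionda library. In the shallow library Falstaff UVA replicate 1, LOC111891093 and LOC122198068 had 0 CPM.

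Behind these came 3 protein-coding genes. LOC111914927 had 0.408 ± 0.497 CPM in Luna bionda (SD, n = 11) and 38.6 ± 23.9 CPM in Falstaff (SD, n = 7), and its traces were among the most widespread, with 130 reads in 9 of 11 Luna bionda libraries. LOC111910790 had 0.271 ± 0.543 CPM in Luna bionda and 33.9 ± 22.96 CPM in Falstaff, and LOC128132667 had 0.0168 ± 0.0557 CPM in Luna bionda and 32.6 ± 16.8 CPM in Falstaff (each SD over 11 and 7 libraries). LOC111877655 and LOC111920947, lncRNA genes, and LOC111921374, a protein-coding gene, completed the 10 strongest, with Luna bionda means of 0.0140, 0.0147 and 0.0319 CPM and Falstaff means of 32.5, 31.3 and 31.7 CPM. Of the 55 genes, 36 had a Falstaff mean under 20 CPM.

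At the thresholds the genes just inside and just outside differed little. LOC111877193 entered with a Luna bionda mean of 10.2 CPM, and LOC111895828 missed with 9.68 CPM. LOC111914026 entered with a Falstaff mean of 0.491 CPM, and LOC111901694 missed with 0.586 CPM. In the other direction LOC111898994 entered with a Luna bionda mean of 0.484 CPM and LOC111880843 missed with 0.513 CPM, while LOC111910574 entered with a Falstaff mean of 10.0 CPM and LOC111914704 missed with 9.96 CPM.

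The genes varied somewhat more between libraries of their high variety than other genes of that level. The median coefficient of variation (SD over mean) was 0.481 for the 50 genes in Luna bionda, against 0.385 over all 11171 genes with at least 10 CPM there, and 33 of the 50 lay above that value. Without UVB 2.5 h replicates 2 and 3 the medians were 0.389 and 0.325. In Falstaff it was 0.357 for the 55 genes, against 0.288 over 11841 genes, and 42 of the 55 lay above. The genes compared were not matched in level. The mean level that defines the sets also enters this ratio, so the comparison is a description.

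The traces in the low variety were few reads. The 50 genes high in Luna bionda had 985 reads in all deep Falstaff libraries, out of 206042995 reads, and 5 genes held 50.2% of them. The 55 genes high in Falstaff had 1274 reads in all deep Luna bionda libraries, out of 310210645, and 5 genes held 48.1%. In the first set 16 genes had 2 reads or fewer and 27 had reads in a single Falstaff library. In the second set 11 genes had 2 reads or fewer and 20 had reads in a single Luna bionda library. No gene had reads in every library of its low variety. Small read values were mostly even, 89.1% of all values from 1 to 10 in the tables and 87.2% of the 289 values above 0 in the low variety, so 2 reads may stand for 1 sequenced pair. In a deep library 2 reads are worth 0.0462 to 0.166 CPM.

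These traces lay unevenly over the libraries. Luna bionda day 6 visible light replicate 2 had reads for 43 of the 55 genes high in Falstaff, and was the only deep Luna bionda library with reads for 16 of them. It held 289 reads, or 22.7% of the low-variety reads of this set. Its median level over the 55 genes was 0.324% of the Falstaff mean. It was also the deepest library, with 43276819 reads. The next deepest, Luna bionda day 0 replicate 3, had 40831060 reads and had reads for 18 of the 55. The part of depth in the traces was not tested. The rule itself drops genes with no read, and 43 of 72 is the share with reads when the 17 unread genes of the same level are added.

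Among the Falstaff libraries, day 6 visible light replicate 1 had reads for 29 of the 50 genes high in Luna bionda, or 29 of 66 with the unread genes added. It was the only deep Falstaff library with reads for 12 of the 50, and held 289 reads, 29.3% of the total. Day 0 replicate 2 followed with 26 of the 50 genes. UVB 2.5 h replicate 2 was lowest, with 7 genes and 25 reads. The other deep Falstaff libraries had 9 to 19 genes with reads. Without these libraries the sets shrank, to 39 genes high in Falstaff without Luna bionda day 6 visible light replicate 2 and to 38 genes high in Luna bionda without Falstaff day 6 visible light replicate 1, because their genes with no other trace no longer had a mean above 0.

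**Figure D3:**
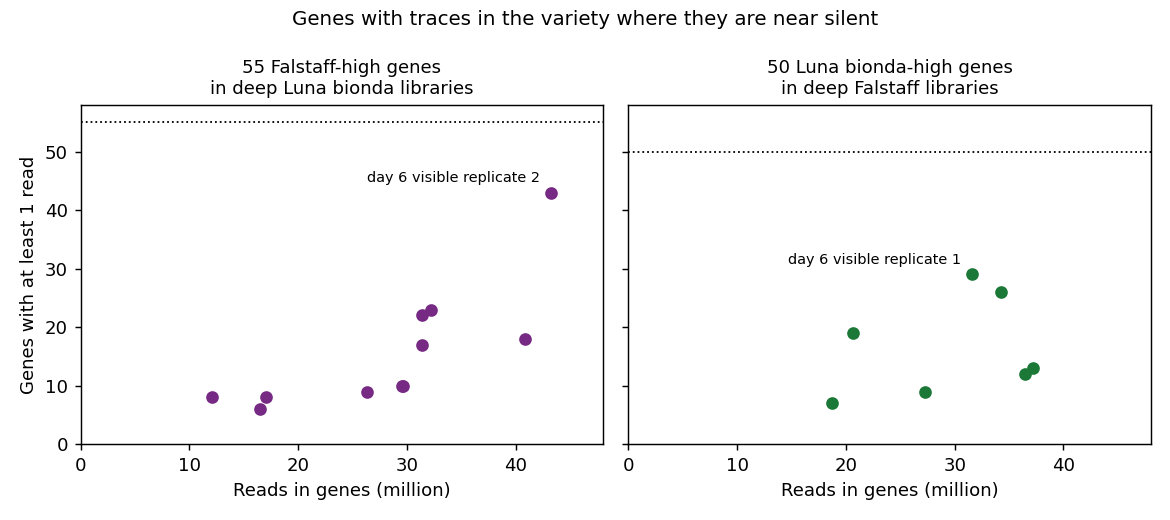
Number of genes with at least 1 read in the deep libraries of their low variety (vertical axis) against the reads in genes of the library (horizontal axis, in units of 1e6 reads). Points are libraries, the dotted lines mark all 55 and all 50 genes. The highest points are day 6 visible light replicate 2 in Luna bionda with 43 genes and day 6 visible light replicate 1 in Falstaff with 29 genes.

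Some genes had their traces in a single library and others had them spread. LOC111912079, protein-coding, had all 38 Falstaff reads in day 6 visible light replicate 1, and LOC111919172 had 94 of 98 in day 6 visible light replicate 3, where it reached 2.53 CPM. LOC111904704 had 18 of 20 in day 0 replicate 2. In contrast LOC111890465 had 103 reads in 6 of 7 deep Falstaff libraries and at most 35 in 1 of them. The neighbours LOC111900807 and LOC111900805 had 41 and 45 reads, each in 6 of 7 libraries. The library with most reads held 34.1% and 35.6% of them.

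The same held in the other direction. LOC111898994, protein-coding, had 149 reads in 10 of 11 deep Luna bionda libraries, at most 30 in 1 of them, and the lncRNA gene LOC111914496 had 60 reads, also in 10 of 11. The lncRNA gene LOC111919462 had 86 reads in 8. These 3 genes had the lowest share in a single library, 20.1% to 21.7%, among the genes of their set with at least 20 low-variety reads. At the other end LOC111891093 had 26 of 46 reads in Luna bionda day 6 visible light replicate 2, LOC111910790 had 54 of 102 in UVB 7.5 h replicate 3, and LOC111875947 had 12 of 23 in UVB 2.5 h replicate 3.

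The 6 shallow libraries were not used to choose the genes, so the contrast of the varieties can be measured there again. The 50 genes high in Luna bionda had 688 CPM in the single shallow Luna bionda library, and 5.79, 0, 11.8, 88.3 and 4.25 CPM in Falstaff day 0 replicate 1, day 6 visible light replicate 2, UVB 2.5 h replicate 1, and UVA replicates 1 and 3. The 55 genes high in Falstaff had 4.45 CPM in the shallow Luna bionda library and 541, 509, 565, 239 and 495 CPM in the same Falstaff libraries. The Luna bionda library was highest for the first set and lowest for the second. The value of the first set in the shallow Luna bionda library was above those of deep UVB 2.5 h replicates 2 and 3, at 530 and 628 CPM, and below those of the other 9 deep Luna bionda libraries, at 1610 to 2579 CPM. The second set was lower in all 5 shallow Falstaff libraries than in the deep ones, at 900 to 1480 CPM. Depth and plastid content could not be told apart from this, since the same 6 libraries differ in both.

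**Figure D4:**
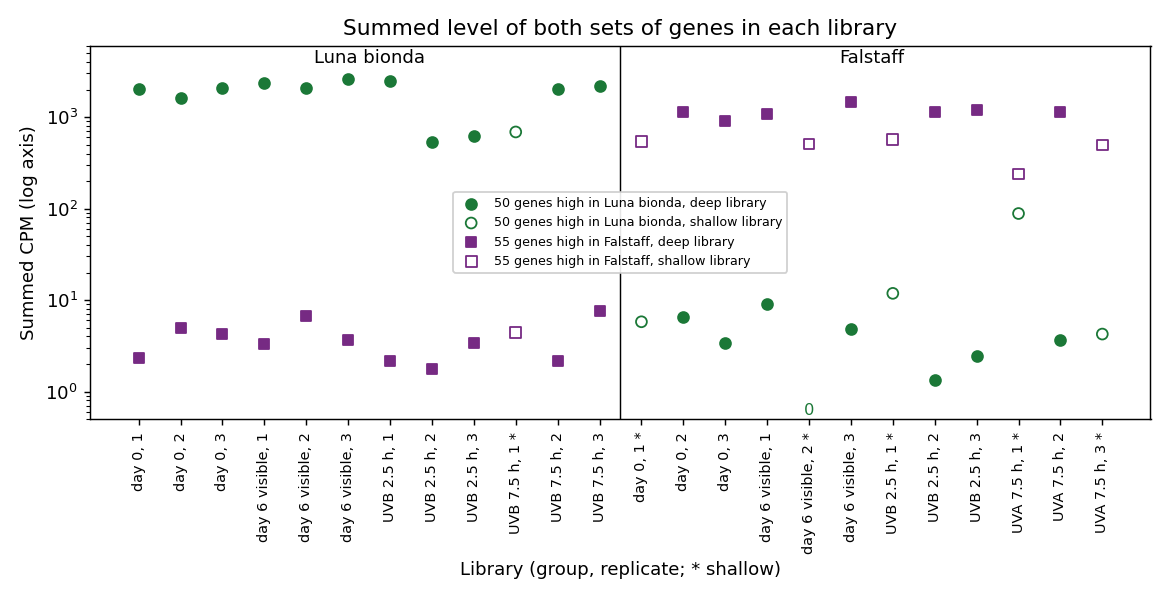
Summed CPM (log axis) of the 50 genes high in Luna bionda (circles) and the 55 genes high in Falstaff (squares) in each library, with open symbols for the 6 shallow libraries and 0 written where no read was found. In the deep Luna bionda libraries the circles lie at 530 to 2579 CPM and the squares at 1.76 to 7.58 CPM, and in the deep Falstaff libraries the circles lie at 1.34 to 9.15 CPM and the squares at 900 to 1480 CPM.

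Gene by gene, 43 of the 50 genes high in Luna bionda were higher in the shallow Luna bionda library than in every shallow Falstaff library, where 25.6% of all genes were. All 5 shallow Falstaff libraries lay above the Luna bionda library for 10 of the 55 genes high in Falstaff, where 2.95% of all genes did. Without Falstaff UVA replicate 1, the shallowest library, these counts were 46 of 50 (26.3% of all genes) and 29 of 55 (7.90% of all genes). No gene of either set was separated in the opposite direction. In reads, the first set had 618 in the Luna bionda library and 61 in the 5 Falstaff libraries together, and the second had 4 in the Luna bionda library and 1900 in the Falstaff libraries.

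A limma fit was also made over all genes with at least 6 reads in the shallow libraries. Luna bionda has a single library there, which is assumed to vary like those of Falstaff. The fit called 29 genes of the first set at an adjusted p of 0.05, where 0.934% of all 20026 genes tested were called higher in Luna bionda, and none of the second set, where 0.0599% were called lower. All 29 had 0 reads in each of the 5 Falstaff libraries and passed the filter only through the Luna bionda library, so nothing is read from their number. Neither edgeR nor DESeq2 made any of these calls. With any 1 of Falstaff day 0 replicate 1, UVB 2.5 h replicate 1 or UVA replicate 1 left out, limma did not make them either.

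Falstaff UVA replicate 1 differed from the other shallow Falstaff libraries in both sets. It had 41 reads from 7 of the 50 genes high in Luna bionda, and reads for 14 of the 55 genes high in Falstaff, where the other 4 had reads for 38 to 49. LOC111912079 had 15 of the 41 reads (32.3 CPM) and LOC111908804 had 12 (25.8 CPM). All 7 genes also had reads in the deep library Falstaff day 6 visible light replicate 1, with 38 for LOC111912079 and 10 for LOC111908804.

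Within each variety the conditions were compared in the deep libraries, which the rule used only through the variety means. All 50 and all 55 genes passed the filter on low values (a mean of 10 normalized reads) in the variety where they were high. In Luna bionda, the libraries of UVB 2.5 h were not alike. The 50 genes summed to 2505, 530 and 628 CPM in replicates 1, 2 and 3 of UVB 2.5 h, against 2366, 2060 and 2579 CPM at day 6 under visible light. The deep libraries of UVB 7.5 h had 2044 and 2188 CPM, and those of day 0 had 2016, 1610 and 2106 CPM. Replicates 2 and 3 lay far below all other deep libraries, while replicate 1 lay among them.

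Both of these libraries lay below every other deep Luna bionda library for 21 of the 50 genes, or 42%. The same held for 22.1% of all genes with at least 10 CPM in Luna bionda. For 0 of the 50 did both lie above, where 8.5% of all genes did. LOC111895045 had 940, 6.19 and 17.0 CPM in UVB 2.5 h replicates 1, 2 and 3, against 854, 621 and 1417 CPM at day 6 under visible light, and 608 to 958 CPM in the other deep libraries. LOC111877255, protein-coding, had 48.9, 1.21 and 0.542 CPM in the same UVB libraries, against 23.1, 52.2 and 35.7 CPM under visible light. LOC111902522, the strongest lncRNA gene, had 44.6, 47.3 and 53.6 CPM under UVB 2.5 h, against 24.8, 41.8 and 43.2 CPM under visible light, so not all genes were low in replicates 2 and 3. In these 2 libraries the genes high in Falstaff stayed near silent, at 1.76 and 3.42 CPM in sum.

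The shallow Luna bionda library, UVB 7.5 h replicate 1, was low in some of the same genes. LOC111895045 had 2 reads there, where its mean deep level would give 623 reads. LOC111912471 had 0 reads, where its mean deep level would give 132. At this depth a count of 0 allows up to 3.34 CPM (3 reads, counting error only). The limit is higher if 2 reads stand for 1 sequenced pair. LOC111905054 and LOC111881937 had 0 reads as well, where 30.5 and 23.8 would be given. LOC111905546 had 44 reads, where 91.6 would be given, so the genes differed in this.

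For UVB 2.5 h against day 6 under visible light in Luna bionda, limma called none of the 50 genes at an adjusted p of 0.05, and none of all 21998 genes (0%). At an unadjusted p of 0.05, 10 of the 50 passed, 2 higher and 8 lower under UVB, where 17.7% of all genes passed. The median log2 fold change of the 50 genes was -0.29, against -0.05 over all genes. LOC111881937, protein-coding, had the smallest p, with 3.76, 0.121 and 1.62 CPM under UVB 2.5 h, against 38.6, 27.2 and 6.58 CPM under visible light, and 49.4, 57.1 and 68.6 CPM at day 0. Every UVB 2.5 h value lay below every visible-light value (log2 fold change -3.77, SE 0.97, limma adjusted p = 0.216), and DESeq2 called it (log2 fold change -3.25, adjusted p = 0.00333). LOC111895045 followed (log2 fold change -3.77, SE 1.28, limma adjusted p = 0.221).

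By the batch tags, all 3 libraries of UVB 2.5 h in Luna bionda had lower tags while all 3 of day 6 under visible light had higher ones. Among the other deep Luna bionda libraries, day 0 replicate 2 alone had a lower tag, so a term for the tag rests on day 0. With that term, 2 of the 50 genes passed an unadjusted p of 0.05, both higher under UVB, where 10.1% of all genes passed, and limma again called none. The median log2 fold change of the 50 genes was then -0.07. The value of LOC111881937 was -3.81 (limma adjusted p = 0.520) and that of LOC111895045 was -3.50 (limma adjusted p = 0.631).

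The edgeR test called none of the 50 genes in this comparison, and DESeq2 called LOC111881937 only. Over all 21998 genes DESeq2 called 1273, 233 of them lower under UVB. Without UVB 2.5 h replicate 1, limma called 9 of the 50, all lower under UVB, where 7.21% of all genes were called lower. They were LOC111895045, LOC111877255, LOC111912471, LOC111881937, LOC111886651, LOC111877658, LOC111905054, LOC111880262 and LOC111909645, with log2 fold changes of -9.90 to -1.68. The value of LOC111895045 was -5.83 (limma adjusted p = 0.000114) without replicate 1, and 0.36 without replicates 2 and 3. The sign of its difference thus rests on these libraries.

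For UVB 7.5 h against day 6 under visible light in Luna bionda, limma called 0 of the 50 genes (0% of all genes) and 1 passed an unadjusted p of 0.05, where 2.48% of all genes did. This was the lncRNA gene LOC111889531, with 32.4 and 53.5 CPM under UVB 7.5 h, against 17.8, 26.9 and 22.0 CPM under visible light. The groups did not overlap (log2 fold change 1.18, SE 0.39, limma adjusted p = 0.99996). LOC111916661, an lncRNA gene, had the next smallest p, with 14.1 and 18.8 CPM under UVB 7.5 h, against 18.7, 9.66 and 10.3 CPM under visible light, and overlapped. The edgeR and DESeq2 tests called none of the 50 either.

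For day 6 against day 0 under visible light in Luna bionda, limma called 0 of the 50 genes (0% of all genes), as did edgeR and DESeq2, and 1 passed an unadjusted p of 0.05, where 1.47% of all genes did. This was the protein-coding LOC111887202, with 37.9, 15.3 and 11.9 CPM at day 6 and 8.45, 8.61 and 12.5 CPM at day 0, which overlapped (log2 fold change 0.82, SE 0.36, limma adjusted p = 0.999). LOC111897335, an lncRNA gene, had 29.7, 13.3 and 9.99 CPM at day 6 and 12.4, 4.31 and 7.91 CPM at day 0 (log2 fold change 0.91, SE 0.44, limma adjusted p = 0.999).

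In Falstaff the 55 genes summed to 1143 and 1186 CPM in the 2 deep libraries of UVB 2.5 h and 1147 CPM in the single deep library of UVA. They summed to 1075 and 1480 CPM at day 6 under visible light, and 1131 and 900 CPM at day 0. Day 6 visible light replicate 3 was highest, and was the highest deep library for 21 of the 55 genes. Day 0 replicate 3 was the lowest for 20 of the 55.

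For UVB 2.5 h against day 6 under visible light in Falstaff, limma called 0 of the 55 genes (0% of all 22742 genes), and 10 passed an unadjusted p of 0.05, 2 higher and 8 lower under UVB, where 8.47% of all genes passed. The median log2 fold change was -0.20, against -0.01 over all genes, and 37 of the 55 values were below 0. Without day 6 visible light replicate 3 the median of the 55 was 0.07, and without replicate 1 it was -0.51. Either leaves a single library under visible light, and the sign of the median rests on replicate 3. LOC128132667 had 17.8 and 14.8 CPM under UVB, against 53.4 and 36.9 CPM under visible light (log2 fold change -1.62, SE 0.36, limma adjusted p = 0.552). LOC111920486, an lncRNA gene, had 10.4 and 7.13 CPM under UVB, against 22.4 and 20.6 CPM under visible light (log2 fold change -1.49, SE 0.36, limma adjusted p = 0.552). Neither gene overlapped between the groups in the deep libraries. The batch tags of these deep UVB libraries lay below those of visible light, so treatment and tag cannot be told apart. In the shallow libraries LOC128132667 had 15.8 CPM under UVB and 21.7 CPM under visible light, while LOC111920486 went the other way, with 15.8 CPM under UVB and 0 CPM under visible light. With the shallow libraries in the fit, the log2 fold change of LOC111920486 was 1.33. The edgeR test called none of the 55, and DESeq2 called these 2 genes, both lower. Over all 22742 genes DESeq2 called 308, 150 of them lower under UVB.

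For UVA 7.5 h against day 6 under visible light, with a single deep UVA library assumed to vary like the other groups, limma called 0 of the 55 genes (0% of all genes), as did edgeR and DESeq2, and 2 passed an unadjusted p of 0.05, both lower, where 4.45% of all genes did. LOC111915085, an lncRNA gene, had 2.58 CPM under UVA, against 18.1 and 7.95 CPM under visible light (log2 fold change -2.20, SE 0.67, limma adjusted p = 0.99976). The lncRNA gene LOC111909825 had 6.07 CPM under UVA, against 16.9 and 19.96 CPM under visible light (log2 fold change -1.59, SE 0.67, limma adjusted p = 0.99976). It was also low under UVB 2.5 h, at 8.46 and 2.72 CPM.

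For day 6 against day 0 under visible light in Falstaff, limma called 0 of the 55 genes (0% of all genes), edgeR called 0, and 3 passed an unadjusted p of 0.05, all higher at day 6, where 6.91% of all genes passed. LOC111921374, protein-coding, had 42.4 and 45.7 CPM at day 6 and 7.86 and 6.00 CPM at day 0. The groups did not overlap in the deep libraries (log2 fold change 2.74, SE 0.34, limma adjusted p = 0.711). DESeq2 called this gene, with 94 called over all 22742 genes (log2 fold change 2.75, adjusted p = 2.21e-07). It was also the single gene of the 55 called by limma without day 6 visible light replicate 3 (adjusted p = 0.0415, where 1.56% of all genes were called), a fit that leaves 1 library at day 6, assumed to vary like the other groups. The shallow library of day 0 went against this, with 47.3 CPM, as did that of day 6, with 14.5 CPM. LOC111920486 had 22.4 and 20.6 CPM at day 6 and 10.8 and 6.05 CPM at day 0 (log2 fold change 1.47, SE 0.36, limma adjusted p = 0.711). Its shallow libraries had 0 CPM at day 6 and 0.965 CPM at day 0, and with them in the fit the value was -0.017.

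Without day 6 visible light replicate 3, limma also called 2 of the 55 genes under UVB 2.5 h and 1 under UVA, where 2.38% and 0.458% of all genes were called. This leaves 1 deep library under visible light, set against 2 of UVB 2.5 h and 1 of UVA, so the spread comes from the other groups and the lone libraries are assumed to vary like them. LOC128127152, protein-coding and picked here after its values were seen, was called in both. It had 45.3 and 14.0 CPM under UVB 2.5 h, 11.4 CPM under UVA, 0 and 11.3 CPM at day 6 under visible light, and 2.10 and 0.677 CPM at day 0. The call rests on day 6 visible light replicate 1, the library at 0. The other gene under UVB was LOC111893805, protein-coding, also picked after its values were seen, with 9.64 and 7.05 CPM under UVB and 43.6 and 9.67 CPM under visible light.

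Along the chromosomes, 6 of the 105 genes had another of them as the next gene with reads, 5.71%, against 0.521% of the other genes with at least 10 CPM. Within 5 genes on either side it was 17 of 105 (16.2%), against 2.60% of other genes. Of the 17, 13 had a neighbour of the same direction, and all 13 were high in Luna bionda. No gene high in Falstaff had another gene of its own set within 5 genes. The order of genes is that of Lsat_Salinas_v11 in RefSeq, and no coordinates are printed because the sources used here do not name the authors' genome build. The 3 adjacent pairs were all high in Luna bionda. They were LOC111884345 with LOC111884344 (14.3 and 12.3 CPM in Luna bionda, 0.0271 and 0.0362 in Falstaff), LOC111897335 with LOC111877255 (13.3 and 32.1 CPM in Luna bionda, 0.0626 and 0.0138 in Falstaff) and LOC111900807 with LOC111900805 (12.9 and 15.8 CPM in Luna bionda, 0.181 and 0.200 in Falstaff). The spans of the genes in a pair did not overlap.

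Neighbours did not always move together. In Luna bionda UVB 2.5 h replicates 2 and 3 the protein-coding LOC111877255 had 1.21 and 0.542 CPM, while its neighbour LOC111897335, an lncRNA gene, had 8.25 and 12.1 CPM. In 2 places, genes of opposite direction lay with 1 gene between them. The lncRNA gene LOC111886651 had 12.7 CPM in Luna bionda and 0.0404 CPM in Falstaff, and the protein-coding LOC111886654 beside it had 0.0158 CPM in Luna bionda and 16.1 CPM in Falstaff. The lncRNA genes LOC111909645 and LOC111920213 likewise had 13.6 and 0.0134 CPM in Luna bionda, and 0.00834 and 15.2 CPM in Falstaff. The span of 1 of the 105 genes (0.952%) overlapped that of another gene in the table, against 4.30% of the other genes with at least 10 CPM.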

How the data were processed

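The groups and replicate numbers follow the sample labels, and each table column was tied to its sample through the batch tag that both carry. Alignment was with STAR and counting with featureCounts 1.6.3, per the submitters' processing notes. The sources used here name no genome build, annotation or strand setting. The deposited values are a signal per gene, normalized by the authors, from which whole reads were recovered, since all values were multiples of 1 step per column (100.0% whole at a tolerance of 0.001). CPM is reads over the total of the library in genes. The genes and lists were chosen with earlier results of these data known.

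Conditions were compared within a variety over all its deep libraries, with limma 3.58.1 in R 4.3.3 on log2(reads scaled by median-of-ratios size factors + 1), for genes with a mean of at least 10 scaled reads, and p-values were adjusted over all genes by Benjamini-Hochberg. The shallow libraries were fitted alike, for genes with at least 6 reads. All tests are two-sided. Fold changes on this log2 scale understate changes of low genes. Alternatives, run on the recovered reads, were the quasi-likelihood test of edgeR 4.0.16 and DESeq2 1.42.0. Other scalings, pseudocounts and filters were tried too, and single libraries were left out. The fits were tested on simulated data.

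The named genes are the 10 strongest of each set, those with the most and the least concentrated low-variety reads, the 2 with the smallest p in each comparison, those next to a threshold, and adjacent pairs. Of the leaf markers only plastid genes were matched, and classes by product name could not be filled because the gene table has no product names. No sequence is shown. Genes with near-identical copies could not be told from others.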

Additional observations from a re-analysis of the deposited data

Results flagged for a closer look

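Of 22 sets of Falstaff values examined for a library far from the others (18 named genes in the 7 deep libraries, and both summed levels in the 7 deep and the 5 shallow ones), 4 had one. Chance alone gives about 1 in 20 for independent, normally distributed values. The sets share the same libraries and hold untransformed CPM, so the count is not set against that rate. Both shallow sums had it in UVA replicate 1, which was the highest for the 50 genes high in Luna bionda at 88.3 CPM and the lowest for the 55 genes high in Falstaff at 239.1 CPM. LOC111891093 was highest in day 6 visible light replicate 3, at 105.3 CPM. LOC111898994 was highest in UVA replicate 2, at 64.4 CPM, where the other deep Falstaff libraries had 1.18 to 22.9 CPM. Groups of 3 libraries and the 11 deep Luna bionda libraries were not examined in this way. The cause was not tested.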

How the results depend on the processing

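The number of genes was 105 by the rule as given, 182 with at least 5 CPM and 39 with at least 20 CPM in the high variety, and 27 with medians in place of means, of which 19 were among the 105. A median of 0 drops a gene whatever its mean. Leaving out any single library kept the count within 1.5 times, with 89 at the lowest, and the other alternatives, among them the libraries with the higher numbers in their batch tags (chosen after seeing the data), gave 94 to 123. The within-variety counts called by limma, all 0, became 1, 1 and 2 with DESeq2 for Luna bionda UVB 2.5 h, Falstaff day 6 against day 0 and Falstaff UVB 2.5 h. Over all genes, DESeq2 called 1273, 94 and 308 in these comparisons. Leaving out single libraries gave 0 to 9, 0 to 1, 0 to 2 and 0 to 1 calls for Luna bionda UVB 2.5 h and Falstaff day 6, UVB 2.5 h and UVA, and 0 to 0 for the other 2. In the shallow libraries the 29 calls became 19 with a pseudocount of 5, 0 with a mean of at least 10 reads, 0 with edgeR, 1 with DESeq2, and 0 to 29 without single libraries. There the counts of separated genes were 43 to 46 and 10 to 29, an alternative chosen after seeing the data. Of 162 values of named genes under alternatives, 3 had the opposite sign. They were LOC111920486 with shallow libraries included, at -0.017 for Falstaff day 6 against day 0 and 1.33 for UVB 2.5 h, and LOC111895045 at 0.36 for Luna bionda UVB 2.5 h without replicates 2 and 3. The cause was not tested. With the replicate number as a block, limma called 0 of these genes in all 6 within-variety comparisons and 29 in the shallow libraries. Libraries with the same number correlated at -0.53 to 0.21 in Luna bionda and 0.07 to 0.12 in Falstaff. Those with different numbers correlated at -0.40 to 0.53 and -0.12 to 0.12. Groups of 2 deep libraries, as all those of Falstaff in this check, give mirrored values, so pairing could not be decided there. The numbers were not taken as pairs. A batch tag term could not be fitted in the deep Falstaff libraries, whose tags are all of the higher numbers. Among these, the UVB 2.5 h libraries had the lowest tags, apart from the rest, so that treatment and tag cannot be separated. In the shallow libraries, 2 reads are worth 1.93 to 4.31 CPM, which limits what can be seen of genes near 10 CPM.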
